A study of Mus musculus with 24 samples.

Results

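Transcripts of 6 matrix metalloproteinases (MMPs: Mmp2, Mmp3, Mmp11, Mmp12, Mmp14 and Mmp19) and of 3 tissue inhibitors of metalloproteinases (TIMPs: Timp1, Timp2 and Timp3) were followed, 9 of the 23420 genes of each deposited table. They were chosen by gene symbol, and all 9 were found in all 4 tables. MMPs are zinc-dependent enzymes that cut collagens, elastin and other proteins of the extracellular matrix. They are made as inactive precursors and are held in check by the TIMPs, which occupy the active site of the enzyme. Mmp14 is anchored in the plasma membrane and, with Timp2 as an adaptor, activates the precursor of Mmp2. In the newborn lung, fibroblasts, epithelium, endothelium and macrophages all contribute members of both families while the walls between air spaces are laid down.

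RNA was sequenced from the left lung lobe of 24 mice in 8 groups of 3. At postnatal day (P) 2 and again at P5, mice labelled WT, with no allele listed, were compared with Sox9Cre/+; Vangl2f/f mice, and another set of WT mice with Sox9Cre/+; Ror2f/f mice. Vangl2 is a membrane protein of the planar cell polarity pathway and Ror2 is a receptor for Wnt5a. Cre made from the Sox9 locus removes either gene from the distal lung epithelium and also acts in other tissues that express Sox9, whereas the lobes were sequenced whole, so fewer cells of a type and less RNA per cell cannot be told apart. The P5 Vangl2 mutants and P2 Ror2 mutants carry a genotype entry that names the other gene. Their titles were followed. The titles of the controls set against Vangl2 mutants name both Vangl1 and Vangl2, without giving an allele.

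Between 13823693 and 21546673 reads fell on genes in a lung. The lowest total belongs to control replicate 1 of the Ror2 P5 table, in which genes of chromosomes 6 to 9 and X are listed at 0. For genes of chromosomes 5 to 9 and X this lung was treated as missing, so Mmp2, Mmp3, Mmp12 and Timp1 have 2 controls in that comparison. Vangl2 transcript stood at 76.8% of control in the P2 Vangl2 mutants (limma adjusted p = 0.241) and at 49.6% in the P5 Vangl2 mutants (0.0604), with no overlap between groups. Ror2 stood at 76.9% and 88.7% of control in the P2 and P5 Ror2 mutants (adjusted p = 0.250 and 0.691), and in both the groups overlapped. In the P2 and P5 Vangl2 mutants Ror2 stood at 99.5% and 73.9%. Vangl2 stood at 86.3% and 84.8% in the P2 and P5 Ror2 mutants. In these too the groups overlapped, with limma adjusted p-values of 0.348 or more. The 2 transcripts thus could not settle the titles followed for the P2 Ror2 mutants. By Y-linked transcripts the groups also differed in sex: 1 of 6 lungs of the Vangl2 P5 table was male, and of the Ror2 P5 lungs 3 of 3 mutants and 1 of the 2 controls without missing chromosomes were. The sex of Ror2 P5 control replicate 1 could not be read, since Y-linked genes at 0 may be missing there too.

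Mmp3 and Mmp12 lie in a run of MMP genes on mouse chromosome 9 (GRCm38, GENCODE M21). Mmp3, an enzyme of broad specificity, spans positions 7445822 to 7455975, and Mmp12, the elastase of macrophages, spans 7344381 to 7369499. Mmp14 lies on chromosome 14 (54431612 to 54445364), Mmp2 on chromosome 8 (92827291 to 92853420), Mmp11 and Mmp19 on chromosome 10, Timp1 on X, Timp2 on chromosome 11 (118301069 to 118355740) and Timp3 on chromosome 10 (86300372 to 86349506). Timp2 overlaps Cep295nl on the same strand, a gene with no values analysed here, so reads of the 2 could not be compared. Timp1 and Timp3 each overlap a synapsin gene on the opposite strand. Whether the counting used strand is not given in the sources used here. Syn1 reached at most 30.0 normalized counts and Syn3 117, against 628 for Timp1 and 47277 for Timp3, but Chchd10, which overlaps Mmp11, reached 1946 against 2467 and Tmem198b, which overlaps Mmp19, reached 433 against 968, so Mmp11 and Mmp19 are the less certain among members with opposite-strand neighbours.

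The RefSeq table used here (GRCm38.p6) gave upstream sequences for 7 members. Those of Mmp14, Timp2 and Timp3 are shown because these members carry the differences described below, with 250 bases ending just before the start site. Capitals mark a GC box (GGGCGG on either strand) or a CCAAT box (CCAAT on either strand). In Mmp14 the CCAAT box nearest the start overlaps the first GC box by 1 base.
Mmp14 (chr14:54431348-54431597, plus strand): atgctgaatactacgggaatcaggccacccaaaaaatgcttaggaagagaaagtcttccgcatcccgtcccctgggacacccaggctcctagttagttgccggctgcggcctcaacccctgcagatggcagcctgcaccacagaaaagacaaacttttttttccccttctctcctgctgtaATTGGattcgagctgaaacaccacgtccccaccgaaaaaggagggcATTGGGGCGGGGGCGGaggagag
Timp2 (chr11:118355412-118355661, minus strand): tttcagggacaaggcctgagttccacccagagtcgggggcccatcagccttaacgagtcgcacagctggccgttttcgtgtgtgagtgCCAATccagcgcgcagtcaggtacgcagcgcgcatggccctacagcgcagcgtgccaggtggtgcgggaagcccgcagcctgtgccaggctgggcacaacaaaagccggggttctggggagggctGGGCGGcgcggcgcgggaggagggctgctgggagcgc
Timp3 (chr10:86300162-86300411, plus strand): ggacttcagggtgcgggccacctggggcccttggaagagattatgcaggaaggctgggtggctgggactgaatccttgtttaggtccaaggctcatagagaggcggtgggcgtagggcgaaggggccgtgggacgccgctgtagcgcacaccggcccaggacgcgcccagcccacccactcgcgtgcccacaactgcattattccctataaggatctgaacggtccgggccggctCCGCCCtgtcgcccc

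Mmp3 and Mmp12, the members with the fewest reads, are the only ones of these 7 whose upstream sequences hold the letters of an AP-1 site, which is why they are shown. The 60 bases before the Mmp3 start and before the second of 2 Mmp12 starts each hold these letters, TGANTCA, in capitals below, and that of Mmp3 also holds TATAAA.
Mmp3 (chr9:7445762-7445821, plus strand): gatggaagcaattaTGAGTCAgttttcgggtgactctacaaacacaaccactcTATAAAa
Mmp12 (chr9:7347314-7347373, plus strand): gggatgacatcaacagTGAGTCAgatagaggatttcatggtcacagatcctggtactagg
Over 250 bases, TGANTCA was found in 2 of the 8 upstream sequences of members and in 6.75% of 32851 such sequences in the genome. GGGCGG was found in 5 of 8 and in 32.7%, CCAAT in 3 of 8 and in 33.9%, and TATAAA in 1 of 8 and in 12.4%, each on both strands. A match is a description of the letters and not of a bound factor.

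The members differed in level by orders of magnitude. In the controls of the Vangl2 P2 table the mean level, in RPKM (reads on a gene scaled to the total reads of the lung and to kilobases of exon), was 174 ± 5.45 for Timp2 (SD, n = 3), 118 ± 9.62 for Mmp2, 83.6 ± 15.9 for Timp3, 55.2 ± 3.31 for Mmp14 and 40.8 ± 4.58 for Mmp11. The secreted inhibitor Timp1 followed at 15.0 ± 1.26 RPKM and Mmp19 at 4.85 ± 0.244 RPKM. Mmp12, at 0.271 ± 0.163 RPKM, and Mmp3, at 0.0267 ± 0.0267 RPKM, came last. Mmp3 was near the limit of detection, whereas Mmp12 was low but measured in each of these lungs, at 14.4 to 60.7 normalized counts. In RPKM Timp2 and Mmp2, the partners of Mmp14 at the cell surface, headed the list. That rests on exon lengths of 8144 bases for Timp3, 3896 for Timp2 and 3371 for Mmp2. Without division by length, Timp3 had a higher mean than Mmp2 in all 4 control groups. At P2 Timp3 also stood slightly above Timp2, at 681 against 677 in the Vangl2 and 771 against 739 in the Ror2 controls. At P5 Timp3 stood below Timp2, at 719 against 867 and 965 against 1039. The RPKM order of the 9 means was the same in all 4 control groups. Neighbours in that order were separated in every control group except Timp3 and Mmp14 in the Vangl2 P5 table, where single lungs overlapped, and Mmp12 and Mmp3 in the Vangl2 P5 and Ror2 P2 tables.

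**Figure D1:**
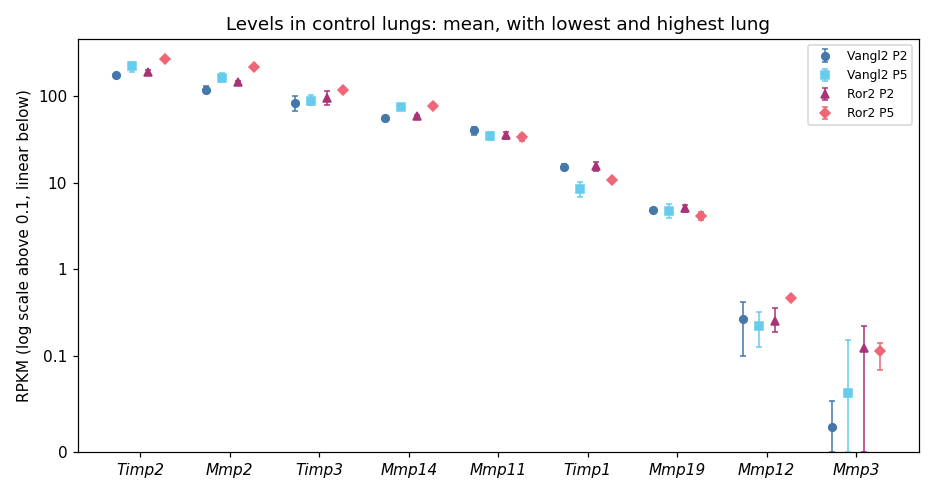
Mean RPKM of each member in the control lungs of the 4 tables (n = 3, or 2 in the Ror2 P5 table), with bars from the lowest to the highest lung. The vertical axis is logarithmic above 0.1 RPKM and linear below, and Timp2 is highest and Mmp3 lowest in each table.

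Set side by side as shares of a lung's reads, control means at P2 and P5 were as follows. The tables were normalized separately, and the ages were not compared by a test. Mmp14 took 329 ± 19.7 RPM (the same scale without division by length) in P2 and 443 ± 24.3 in P5 controls of the Vangl2 tables, and 348 ± 12.3 and 451 ± 3.21 in those of the Ror2 tables (SD, n = 3, or 2 in Ror2 P5). Timp2 took 677 and 867 RPM in the Vangl2 controls and 740 and 1039 in the Ror2 controls at P2 and P5. Mmp2 took 397 and 544, and 489 and 735. Timp1 had the higher means at P2, with 13.3 and 7.42 RPM in the Vangl2 controls and 13.8 and 9.44 in the Ror2 controls.

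Each mutant was compared with its own controls by limma on log2(normalized count + 1), in which a normalized count is the number of reads on a gene divided by a size factor of the lung, and p-values were adjusted over all genes tested. All 9 members were tested in each comparison and none reached an adjusted p of 0.05 in any of the 4. In the Vangl2 P2 comparison 3.59% of genes did so, in Vangl2 P5 0.563%, in Ror2 P2 0% and in Ror2 P5 0.18%. At an unadjusted p of 0.05, 2 of 9 members passed in each comparison, against 22.5%, 18.8%, 19.3% and 18.5% of genes. They were Mmp14 in all 4, with Timp3 in Vangl2 P2, Mmp12 in Vangl2 P5, Mmp11 in Ror2 P2 and Mmp2 in Ror2 P5. On whole reads edgeR called 0 members in each comparison, and DESeq2 called 2, 1, 1 and 1 of 9 in the order given, namely Mmp14 and Timp3, Mmp14, Mmp11 and Mmp2. In the Vangl2 P5 table, where same-numbered lungs deviated together, a replicate block raised the genes called from 98 to 1558 and still called 0 members. The share of all genes called moved with single lungs: leaving out a lung gave 1 to 2333 genes called in Vangl2 P2 (highest without mutant replicate 3), 0 to 54 in Vangl2 P5, 0 to 859 in Ror2 P2 (highest without mutant replicate 2) and 0 to 901 in Ror2 P5 (highest without mutant replicate 3). Mutant and control lungs did not overlap for 3, 2, 2 and 4 of 9 members in the 4 comparisons, against 29.6%, 25.7%, 25.7% and 30% of genes. The median log2 fold change of the members was 0.07, 0.13, -0.16 and -0.07 in the 4 comparisons, against 0.00, 0.00, -0.01 and 0.00 over all genes.

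**Figure D2:**
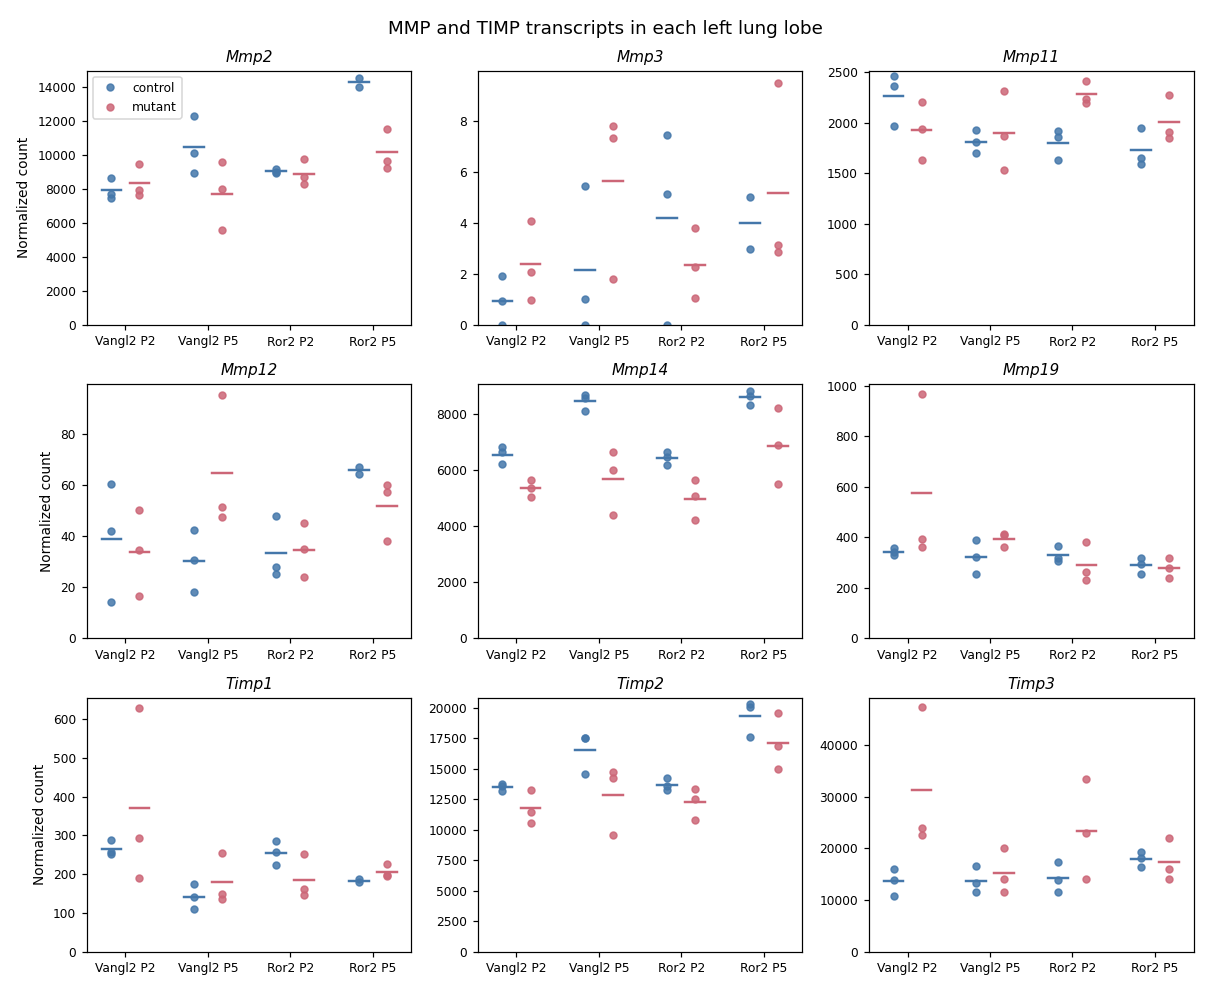
Normalized counts of the 9 members in every lung, with a bar at each group mean (blue, control; red, mutant; n = 3, or 2 controls for Mmp2, Mmp3, Mmp12 and Timp1 in Ror2 P5). Values can be compared within a table only, and for Mmp14 every mutant lung lies below every control of its table.

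Mmp14 was lower in the mutant lungs of every table. At P2 its normalized counts were 6209, 6836 and 6649 in the Vangl2 controls and 5354, 5057 and 5660.5 in the Vangl2 mutants, a log2 fold change of -0.29 (SE 0.09, limma adjusted p = 0.120). At P5 they were 8706, 8106 and 8576 in the Vangl2 controls and 6006, 6647 and 4400.0 in the mutants (-0.59, SE 0.18, adjusted p = 0.150). Each mutant lung thus lay below each control at both ages. In the Ror2 P2 table the controls had 6669, 6463 and 6195 counts and the mutants 5081, 5662 and 4219.6 (-0.38, SE 0.11, adjusted p = 0.206). In the Ror2 P5 table the controls had 8323, 8843 and 8669.7 counts and the mutants 5508, 6893 and 8242 (-0.34, SE 0.14, adjusted p = 0.240). Here mutant replicate 3 came close to the lowest control. Without single lungs of this table the log2 fold change ranged from -0.48 (adjusted p = 0.0473, without mutant replicate 3) to -0.19 (adjusted p = 0.348, without mutant replicate 1). Of 16723 genes tested in all 4 tables, 0.783% had every mutant lung below every control in each of them, and Mmp14 is among these 131 genes. No member had every mutant lung above every control in all 4, as 0.724% of genes did. The exact two-sided permutation test gave p = 0.1 in each table, the smallest that 3 lungs against 3 allow.

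Because Mmp14 was lower in the mutants of every table, the 24 lungs were also fitted together with a term for each table and 1 mutant effect, a fit chosen after the separate values were seen. It uses 23 lungs for genes missing in Ror2 P5 control replicate 1, and 24 for the others. In this fit Mmp14 fell to 75.7% of control (log2 fold change -0.40, SE 0.07, 95% interval -0.55 to -0.26, adjusted p = 0.000405). Timp2 fell to 85.1% (-0.23, SE 0.07, adjusted p = 0.0182) and Timp3 rose to 138% (0.46, SE 0.17, adjusted p = 0.0450). These 3 of 9 members called stand against 29.8% of all genes called in the same fit, a share near that of the members, and with Mmp2 4 of 9 reached an unadjusted p of 0.05, as 40.9% of genes did. The Mmp14 call held in all 34 alternatives, at an adjusted p between 0.000118 and 0.00544. These 34 leave out a table or a lung, or change the pseudocount, filter, totals, trend or replicate block. Sex, edgeR and DESeq2 were not tried in this fit. The Timp2 call was lost without the Vangl2 P2 table (adjusted p = 0.0708) or the Ror2 P2 table (0.0516). For Timp3 the call was lost in 18 of 34 alternatives, and without the Vangl2 P2 table its value was 0.24 (adjusted p = 0.342). The mean of Mmp2 was -0.21 (SE 0.09, adjusted p = 0.0888), and those of the other 5 members had 95% intervals that include 0, such as 0.09 for Mmp11 (-0.07 to 0.26) and 0.07 for Timp1 (-0.28 to 0.42).

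**Figure D3:**
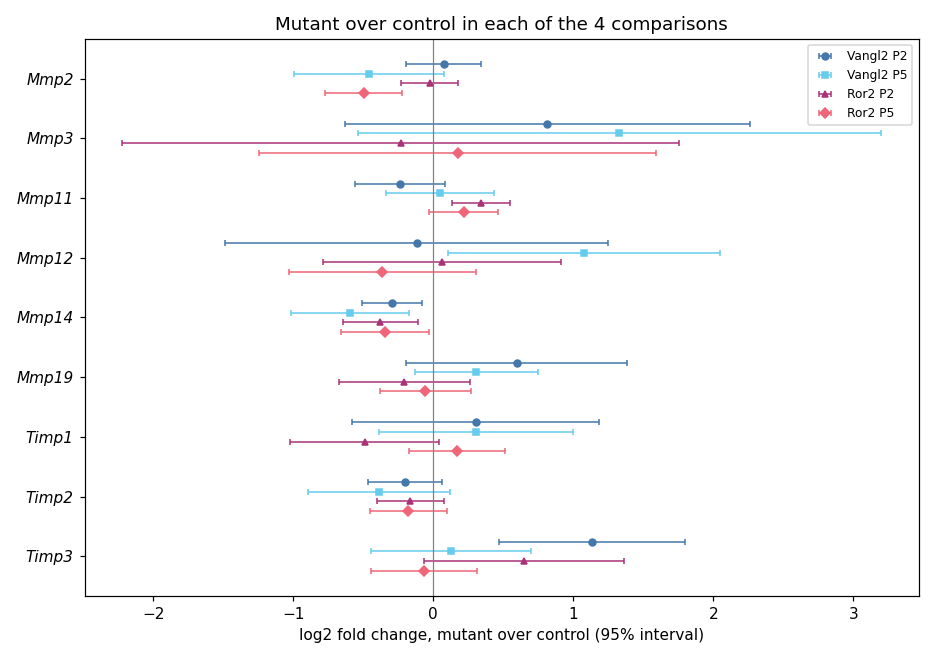
Log2 fold change of each member, mutant over control, with its 95% interval from limma, in the 4 comparisons. All 4 intervals of Mmp14 lie below 0, and that of Mmp3 is the widest in each comparison.

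The Mmp14 effect was not shown to differ between the genotypes. The Ror2 effect minus the Vangl2 effect was -0.09 at P2 (95% interval -0.40 to 0.23) and 0.25 at P5 (-0.26 to 0.77), with limma adjusted p-values of 0.984 and 0.998. No member passed in any of the 4 tests of a difference between effects, in which 0%, 0.0118%, 0% and 0% of genes were called (Ror2 against Vangl2 at P2, then at P5, then P5 against P2 in Vangl2, then in Ror2). At an unadjusted p of 0.05 the members were Mmp11 in the first, Mmp12 in the second, Timp3 in the third, and Mmp2 and Timp1 in the fourth, against 4.6%, 4.73%, 8.45% and 9.49% of genes. With sex as a covariate the Mmp14 values were -0.27, -0.65 and -0.38 in the Vangl2 P2, Vangl2 P5 and Ror2 P2 comparisons. In Vangl2 P5 mutant replicate 1 was the only male, so there the covariate amounts to leaving out that lung and cannot adjust for sex. In Ror2 P5 the value was -0.35 (adjusted p = 0.650), in a fit that counts control replicate 1, of unread sex, as not male.

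Beside Mmp14, markers of matrix fibroblasts, which make much of the collagen of the lung, were also lower in sum. Their summed level over 10 markers was 7617 to 8308 RPM in the Vangl2 P2 controls and 4932 to 5790 in the mutants, and 10417 to 12422 and 5787 to 7899 at P5. In the Ror2 tables it was 8461 to 9260.2 and 4895 to 7807 at P2, and 11333 to 11346 and 7551 to 10501 at P5. No marker was at 0, and the ranges of mutants and controls did not overlap in any table. Col1a1 and Col3a1, the chains of the main fibrillar collagens, made up between 38.9% and 55.6% of the sum. The list did not move as a whole: Tcf21, a transcription factor of these cells, had log2 fold changes of 0.39, 0.28, 0.35 and -0.25 in the 4 comparisons, and Pdgfra, their receptor for platelet-derived growth factor, 0.13, -0.88, 0.27 and -0.58, none of which passed. In the fit over all tables, Col1a1, Col3a1, Mfap4 and Mfap5 fell among the 10 and none rose, against 15% and 14.8% of all genes that fell and rose. Markers of myofibroblasts and smooth muscle, the contractile cells of the lung, stood lower too. Over 10 markers they summed to 2750.0 to 3368 RPM in the Vangl2 P2 controls and 2094 to 2558 in the mutants, and to 2714 to 3588 and 1846 to 3121 at P5. In the Ror2 tables the sums were 2662 to 3261 and 1987 to 2693 at P2, and 3320 to 4064 and 2508 to 4054 at P5, so that the ranges overlapped in all but the Vangl2 P2 table. In the fit over all tables, 5 of these 10 fell and 0 rose, beside the same shares of all genes. Among those that fell were Myocd, a transcriptional co-activator of smooth muscle genes (-0.54), and the muscle myosin gene Myh11 (-0.45). Myh11 also fell in the Vangl2 P2 comparison alone (-0.48, adjusted p = 0.0339).

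Most markers of the alveolar epithelium stood higher in the same fit. Of 8 markers of flat alveolar type I cells 6 rose and 0 fell, and of 8 markers of surfactant-making type II cells 5 rose and 0 fell. Of all genes 14.8% rose and 15% fell in that fit. The type II list did not move as a whole: its markers Sftpc and Etv5 had 0.02 and -0.26 there. In the Ror2 P5 comparison the median of that list was -0.06, with 4 of 8 above 0. In the Vangl2 P2 comparison alone Hopx (0.75, adjusted p = 0.0436), a type I marker, and the type II markers Sftpa1, a surfactant protein (1.89, adjusted p = 0.0329), and Slc34a2, a phosphate transporter (0.63, adjusted p = 0.0394), rose. No marker of these 3 lists was at 0. Myh11 and these 3 genes kept their sign in all 16 alternatives to that comparison and their call in 7 to 9 of them. The part of these cell types and of matrix fibroblasts in the Mmp14 result was not tested.

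**Figure D4:**
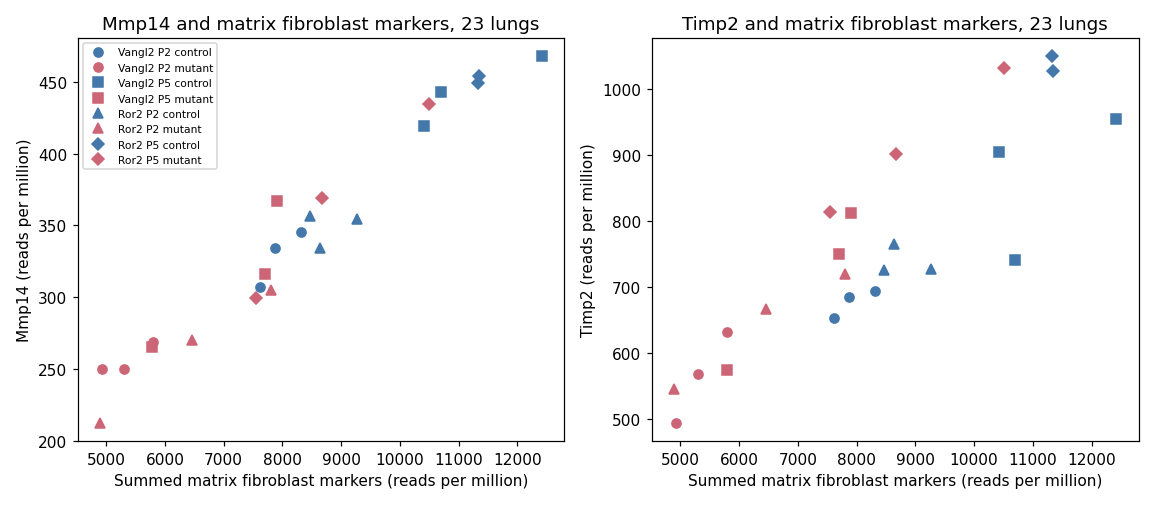
Mmp14 (left) and Timp2 (right) against the summed level of 10 matrix fibroblast markers, both in RPM, in 23 lungs (colour, group; symbol, table). In each table the mutants sit to the lower left of the controls for Mmp14, and for Timp2 the groups overlap in level at P5.

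Over the same 23 lungs, after centring on each table's mean, the genes whose log2 values were most like those of Mmp14 among 12656 compared were Col1a2 (Pearson's r = 0.971), Palm2 (0.961) and Igfbp4 (0.960). These values include the difference between mutants and controls, and after centring on each group instead r was 0.947, 0.910 and 0.937. For Timp2 they were Fam19a1 (0.956), Fstl1 (0.955) and Igfbp4 (0.946). Mmp14 and Timp2 had an r of 0.894 with each other, or 0.823 within groups. Lungs of a table share their size factors' estimation, and these values are descriptions. Mmp2 was most like Coro1c (0.921), Bmp2k (0.890) and Rnf122 (0.883).

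Timp2, the soluble inhibitor that also bridges Mmp14 and pro-Mmp2, had a lower mean in the mutants of each table. Its normalized counts in the Vangl2 P5 table were 14555, 17503 and 17495 in the controls and 14225, 14705 and 9532 in the mutants, so that 1 mutant lung overlapped the controls (log2 fold change -0.39, SE 0.22, adjusted p = 0.389). Without mutant replicate 3 the value was -0.19, and without other single lungs it reached -0.50. In the Vangl2 P2 table they were 13200.3, 13718 and 13619.6 against 10593, 11494 and 13294 (-0.20, SE 0.11, adjusted p = 0.332), a value that lay between -0.29 and -0.13 without single lungs. The groups overlapped in each of the 4 tables, whereas in RPM they overlapped in the P5 tables only. The Ror2 values were 13575, 13256 and 14199 against 12549.9, 13359 and 10818 at P2 (-0.16, adjusted p = 0.390), and 17598, 20044 and 20276 against 15001, 16832 and 19566 at P5 (-0.18, adjusted p = 0.444). Leaving out a lung moved the P2 value within -0.23 to -0.078 and that of P5 within -0.28 to -0.086.

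Mmp2, the gelatinase that Mmp14 activates, had lower means in the mutants at P5, and at P2 its groups were interleaved. In the Ror2 P5 table the 2 controls used had 14015 and 14496 normalized counts and the mutants 9232, 9641 and 11535, with no overlap (log2 fold change -0.50, SE 0.12, 95% interval -0.77 to -0.22, adjusted p = 0.129). Among the genes of that table with 2 controls, 18.3% had every mutant below every control. Without mutant replicate 3 the value was -0.60 (adjusted p = 0.0275). In the Vangl2 P5 table the controls had 12262, 10122 and 8908 counts and the mutants 9575, 8010.2 and 5555, which overlap (-0.46, SE 0.23, adjusted p = 0.334). The P2 values were 7472, 7679 and 8610.4 against 7950.4, 7638 and 9459 for Vangl2 (0.07, 95% interval -0.20 to 0.34) and 8935, 9003 and 9189.7 against 8283, 8676 and 9738 for Ror2 (-0.03, -0.23 to 0.18). The difference between ages in the Ror2 effect was -0.47 (SE 0.14, unadjusted p = 0.00725, adjusted p = 0.452), and that in the Vangl2 effect was -0.53 (SE 0.27, adjusted p = 0.606).

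Timp3, the inhibitor that binds to the matrix and also blocks several ADAM proteases, was the member with the largest difference at P2 among those above 1 RPKM. In the Vangl2 P2 table its normalized counts were 13871, 10849 and 16064 in the controls and 47277, 24002 and 22537 in the mutants (log2 fold change 1.13, SE 0.29, 95% interval 0.47 to 1.80, adjusted p = 0.0739). All 3 mutant lungs lay above the controls, as in 14.6% of genes. Mutant replicate 1, the only male mutant of that table, stood far above the other 2. Control replicates 2 and 3, also male, had 10849 and 16064 counts. With equal totals and the other settings tried, the value stayed between 1.07 and 1.29, and without single lungs between 0.79 and 1.33. Without mutant replicate 3 the gene passed (adjusted p = 0.0299). In the Ror2 P2 table the controls had 13891, 11652 and 17265 counts and the mutants 22911, 14084 and 33318, with 1 mutant among the controls (0.65, SE 0.30, adjusted p = 0.289). Leaving out mutant replicate 3 lowered the value to 0.35, and leaving out mutant replicate 2 gave 0.97.

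At P5 the Timp3 groups were mixed, and the highest Vangl2 lung, mutant replicate 1, was the only male of its table. The Vangl2 lungs had 16492, 13228 and 11606 counts against 20094, 14074 and 11644 (0.13, 95% interval -0.45 to 0.70), and the Ror2 lungs 16304, 18084 and 19364 against 21963, 16012 and 14059 (-0.07, -0.45 to 0.31). The Vangl2 effect at P5 minus that at P2 was -1.01 (SE 0.41, unadjusted p = 0.0306, adjusted p = 0.577), and that of Ror2 was -0.72 (SE 0.38, adjusted p = 0.585). The genes most like Timp3 were Klf9 (Pearson's r = 0.942), Sh3d21 (0.938) and Tinagl1 (0.934), and among the members it was Mmp19 (0.623). Markers of mesothelium, the outer lining of the lung, with none of 6 at 0, ranged in sum from 294 to 396 RPM in the Vangl2 P2 controls. In the mutants they ranged from 302 to 681. At P5 the Vangl2 sums were 150 to 256 and 308 to 456, without overlap. In the Ror2 tables they were 281 to 325 and 268 to 503 at P2, and 153 to 155 and 119 to 489 at P5. The lung with the highest sum was also highest for Timp3 in both Ror2 tables, but in neither Vangl2 table. In the fit over all tables, 2 of these 6 rose, Msln and Rspo1, and 0 fell, against 14.8% and 15% of all genes that rose and fell. Their part in the Timp3 result was not tested.

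Mmp19, an enzyme that cuts basement membrane proteins, stood apart in a single lung. Vangl2 P2 mutant replicate 1 had 968 normalized counts, against 392 and 363 in the other mutants and 329, 356 and 342 in the controls (log2 fold change 0.59, SE 0.34, adjusted p = 0.345). All 3 mutants lay above the controls, as in 14.6% of genes, and without the first the difference was 0.14. It is the lung that was also highest for Timp3, and the only male mutant of that table. Control replicates 2 and 3, with 356 and 342 counts, were male too. Elsewhere the Mmp19 groups overlapped, with values of 256 to 412 in the Vangl2 P5 table, 231 to 381 in Ror2 P2 and 240.2 to 317 in Ror2 P5. The genes most like Mmp19 were Ddit4 (0.867), Qsox1 (0.854) and Rbl2 (0.827).

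Timp1, the inducible inhibitor, followed no common direction. The Vangl2 P2 controls had 252, 288 and 257 normalized counts and the mutants 294, 189.8 and 628, the last of them the highest of that table (log2 fold change 0.30, SE 0.38, adjusted p = 0.677). At P5 the Vangl2 values were 175, 141 and 111 against 256, 149 and 136 (0.30, adjusted p = 0.637). In the Ror2 P2 table they were 286, 223 and 258 against 161, 251 and 146 (-0.49, SE 0.23, adjusted p = 0.285). The Ror2 P5 mutants, with 225, 197 and 196 counts, lay just above the 2 controls used, with 179.7 and 187 (0.17, adjusted p = 0.559), as in 19.4% of the genes with 2 controls. The Ror2 effect at P5 minus that at P2 was 0.66 (SE 0.29, unadjusted p = 0.0454, adjusted p = 0.512). The genes most like Timp1 were 1810022K09Rik (0.767), Srxn1 (0.757) and Tnfaip2 (0.747).

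Mmp11, a protease of stromal cells also known as stromelysin 3, stood higher in the Ror2 P2 mutants. Their normalized counts were 2194, 2409 and 2236, above the 1858, 1920.0 and 1629 of the controls (log2 fold change 0.34, SE 0.09, 95% interval 0.14 to 0.55, adjusted p = 0.203), as in 13.4% of genes. The Vangl2 P2 mutants had 1628, 2209 and 1938 counts against 2467, 2362 and 1966 (-0.24, SE 0.14, adjusted p = 0.353). The Ror2 effect minus the Vangl2 effect at P2 was 0.58 (SE 0.17, unadjusted p = 0.00576, adjusted p = 0.946). At P5 the groups overlapped in both tables, with values of 0.05 for Vangl2 and 0.22 for Ror2. The genes whose values were most like Mmp11 were Mtcp1 (0.834), Mbip (0.831) and Morc3 (0.803).

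Mmp12, the macrophage elastase, was measured by few reads. In the Vangl2 P5 table the controls had 18.2, 30.6 and 42.3 normalized counts and the mutants 47.7, 51.5 and 95.6, without overlap (log2 fold change 1.08, SE 0.42, adjusted p = 0.224), as in 13.2% of genes. In the Ror2 P5 table the 2 controls used had 67.3 and 64.5 counts and the mutants 60.3, 57.4 and 38.2 (-0.36, SE 0.28, adjusted p = 0.511), as in 18.3% of the genes with 2 controls. At P2 the values were mixed, between 14.4 and 60.7 in the Vangl2 table and between 24.2 and 47.8 in the Ror2 table. Most like Mmp12 over 23 lungs were Mkks (0.746), Bbip1 (0.658) and Rrp36 (0.658). Macrophage markers, of which 8 were measured, none was at 0 and 0 were called, summed to 837 to 1339 RPM in the Vangl2 P5 controls and 2247 to 2645 in the mutants. In the Ror2 P5 table they summed to 1008 to 1112 and 1223 to 1794. In the Vangl2 P2 table, where the Mmp12 value was -0.12, they summed to 1514 to 1795 and 1946 to 2157, without overlap. In the Ror2 P2 table, where it was 0.06, they summed to 1224 to 1997 and 1600 to 2201. In the fit over all tables, 3 of the 8 rose, Csf1r, Lyz2 and Mertk, and 0 fell, against 14.8% and 15% of all genes that rose and fell. The Csf1r call was kept in 19 of 34 alternatives. Whether macrophage RNA accounts for the Mmp12 values was not tested.

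Mmp3 was listed at 0 to 9.51 normalized counts in all lungs used, and at this depth no difference was detectable. Its widest interval was -2.22 to 1.75 in the Ror2 P2 table, and its largest log2 fold change was 1.33 (SE 0.81) in the Vangl2 P5 table, on controls with 5.47, 0 and 1.01 counts and mutants with 7.33, 7.83 and 1.79. Its values were most like those of Atp6v1f (0.703), Pdzk1ip1 (0.696) and Vmp1 (0.675).

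Among the 19 other MMPs and inhibitors of a fixed list, 13 or 14 were tested in each comparison. The collagenase Mmp8, which neutrophils store, was the only one called. Its normalized counts in the Vangl2 P2 table were 212, 151 and 217 in the controls and 883, 571 and 418 in the mutants (log2 fold change 1.64, SE 0.28, adjusted p = 0.0326). At P5 they were 179, 130.5 and 113 against 381, 373 and 744 (1.77, SE 0.31, adjusted p = 0.0575). Mmp9, the gelatinase of neutrophils, had 0.74 at P2 (adjusted p = 0.108) and 1.38 at P5 (0.0823). In both Vangl2 tables all mutants were above the controls for Mmp8 and Mmp9, and in the Ror2 tables the groups overlapped, with a single P2 control at 1521 counts of Mmp8 and 1128 of Mmp9. Neutrophil markers moved with them: of 9 tested, 6 rose in the Vangl2 P2 mutants, among them Mpo (2.97), Ltf (1.61), Cxcr2 (1.51), Retnlg (1.43) and Ngp (1.24), and 2 rose at P5, Retnlg (2.68) and Cxcr2 (1.90). Their sum was 109 to 169.7 RPM in the Vangl2 P2 controls and 307 to 341 in the mutants, and 88.5 to 143 and 304 to 750.2 at P5, with none at 0. The part of neutrophils in these values was not tested. Each call in a single comparison named here and in the lists that follow kept its sign in all 16 alternatives and its call in 7 to 11 of them, and in 1 to 3 of the 6 that leave out a lung. In the fit over all tables, 3 of the 13 other MMPs and inhibitors tested were called, each on 23 lungs, against 29.8% of all genes. Timp4, an inhibitor measured at 5.47 to 137 counts, rose (1.03, adjusted p = 0.00439). The membrane-bound Mmp17 (-0.59, adjusted p = 0.00198) and Mmp15 (-0.18, adjusted p = 0.0423) fell, the last call being kept in 15 of 34 alternatives. Of the run on chromosome 9, Mmp1a and Mmp20 were at 0 in every lung, and Mmp1b, Mmp7 and Mmp10 never exceeded 2.11 counts.

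Proteases of the related ADAM and ADAMTS families include several that Timp3 blocks. Of 20 tested, 0 rose and 2 fell in the Vangl2 P2 mutants, Adam12 (log2 fold change -1.48, SE 0.29, adjusted p = 0.0396) and Adamts17 (-0.56, SE 0.09, adjusted p = 0.0300). Their median was -0.07, -0.46, -0.10 and -0.29 in the 4 comparisons. In the fit over all tables, 8 of 20 fell and 1 rose, Adam8 (1.00), an ADAM of white blood cells, against 15% and 14.8% of all genes that fell and rose. Among those that fell were Adam12 (-1.27), Adamts4 (-0.69, a call kept in 15 of 34 alternatives), Adamts7 (-0.66) and Adamts17 (-0.58). Of the 12 genes of the plasminogen system and the convertases that cut pro-Mmp14, 0 were called in any single comparison. In the fit over all tables Serpine2 (-0.47) and Pcsk6 (-0.27) fell among 11 tested and 0 rose, beside the same 15% and 14.8% of all genes. Furin, the convertase best known for this step, had 0.39, -0.12, -0.01 and -0.29, none past the threshold.

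Of 15 genes for proteins of the alveolar wall that MMPs cut, Col1a1 (log2 fold change -0.64, adjusted p = 0.0394) and Tnc (to 36.2% of control, adjusted p = 0.0265), which encodes tenascin C, fell in the Vangl2 P2 mutants, and Spp1 (2.37, adjusted p = 0.0148), which encodes osteopontin, rose in the Vangl2 P5 mutants. The medians were -0.14, -0.65, -0.15 and -0.30. In that fit over all tables, 8 of 15 fell and 0 rose, against 15% and 14.8% of all genes. Among those that fell were Vcan (-1.11), which encodes versican, Tnc (-0.86), Col1a1 (-0.66) and Col1a2 (-0.62). Col1a1 and Col3a1 are also among the matrix fibroblast markers given above. Elastin (Eln), the substrate of Mmp12, had 1.10 in Vangl2 P2 (adjusted p = 0.0828) and 0.55 in Ror2 P2 (adjusted p = 0.298), and neither value passed. It was among 6 and 4 of the 15 genes with a value above 0 in these comparisons. At P5 Eln was not above 0: Spp1 was the only 1 of the 15 above 0 in Vangl2, and 0 were in Ror2. Over all tables Eln had 0.23 (95% interval -0.18 to 0.65, limma adjusted p = 0.402).

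Cathepsins are lysosomal proteases that can also degrade matrix, and cystatins inhibit them. Of 11 such genes tested, Ctsh (log2 fold change 1.11, adjusted p = 0.0301) and Ctsl (0.60, adjusted p = 0.0457) rose in the Vangl2 P2 mutants. Ctss (1.45, adjusted p = 0.0141) rose in the Vangl2 P5 mutants, and the medians of these comparisons were 0.33 and 0.60. Of the same 11 genes 0 were called in the Ror2 comparisons, and the medians were -0.10 and -0.02. The difference between the genotypes was not tested for the list. In the fit over all tables Ctsh (0.59), Ctsl (0.44) and Ctsd (0.34) rose and 0 of the 11 fell, against 14.8% and 15% of all genes. Of 21 cytokines, receptors and transcription factors that induce MMPs and Timp1, 0 were called in any single comparison. Their median was 0.90, -0.01, 0.50 and -0.16. Over all tables, 6 of 20 rose and 0 fell, against 14.8% and 15% of all genes. Among those that rose were the interleukin-6 receptor Il6ra (0.92), oncostatin M (Osm, 0.88) and its receptor Osmr (0.80). The Osm call was kept in 20 of 34 alternatives.

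**Figure D5:**
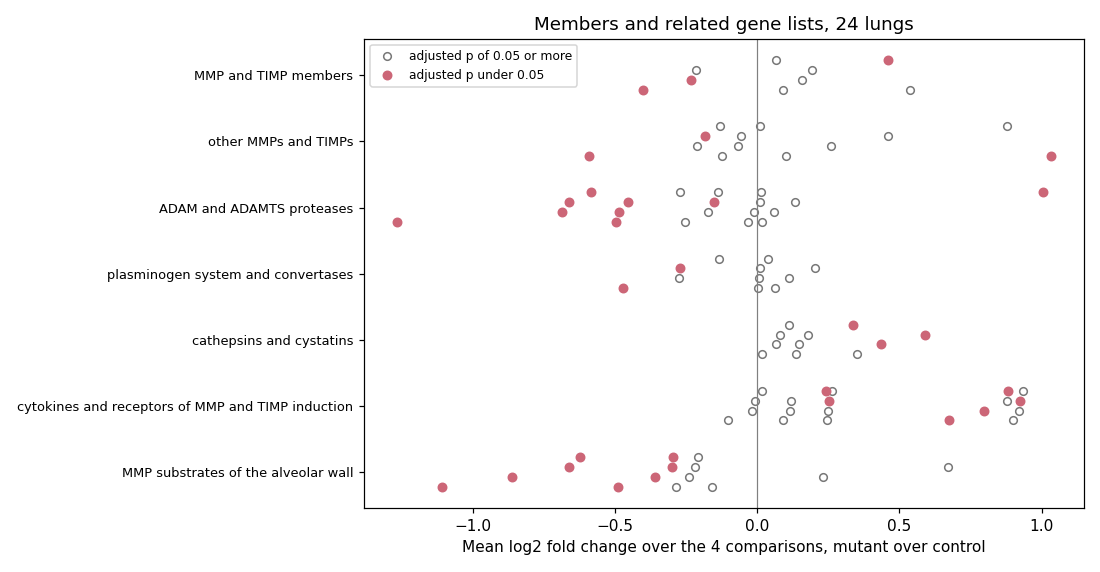
Mean log2 fold change over the 4 comparisons (23 or 24 lungs a gene, a term for each table) of the 9 members and of 6 lists of related genes. Each point is a gene, filled where its adjusted p is under 0.05, and of the 9 members Mmp14 and Timp2 are filled below 0 and Timp3 above 0.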

How the data were processed

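The authors sequenced RNA of whole left lobes on Illumina instruments and deposited, per comparison, a table of 23420 genes whose signal values are reads per gene divided by a size factor of the lung. The submitters' processing notes name DESeq2 and mm10, and aligner and counter are not given in the sources used here. The tables also hold the authors' means, fold changes, test statistics and p-values, which were not used. Whole reads were recovered in all 24 lungs, with 100% of values within 0.02 of a whole read. In 3 of them a read is worth so nearly 1 that whole values alone cannot show this.

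Lungs were grouped by title. Genes that reached a normalized count of 1 in at least 3 lungs were tested on the log2(normalized count + 1) scale by limma (version 3.58.1 under R version 4.3.3), fitting lmFit and then eBayes with trend. All p-values were adjusted by Benjamini and Hochberg across every tested gene and read at 0.05. The scripts were tested on simulated data. Differences between effects used the 12 lungs of 2 tables, and the mean effect all 24, or 23 for genes missing in a lung. Alternatives were other pseudocounts, filters and totals, no trend, a replicate block, each lung left out and, for the mean effect, each table left out. edgeR (version 4.0.16) and DESeq2 (version 1.42.0) on whole reads were tried in single comparisons only. Sex was tried in single comparisons and in differences between effects, and not in the mean effect. In the Vangl2 P5 table same-numbered lungs deviated together (Pearson's r = 0.384, 0.340 and 0.241). No label gives a pairing, and the main limma fit does not use one. Levels are RPM of the reads on genes, and RPKM values divide these by kilobases of GENCODE M21 exons. The 8240 genes set to missing in control replicate 1 of the Ror2 P5 table include 155 with no position. Litters are not labelled, so p-values measure only the spread between these lungs.

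The members and lists were chosen with earlier results of these data known. All members were named in every comparison, list genes where called (at most 5 per comparison, largest first), the 2 targeted genes, and for each member the 3 genes of mean 50 or more with the highest r. Genes given beside these were picked after their values were seen.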

Additional observations from a re-analysis of the deposited data

Results flagged for a closer look

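The Mmp12 values of the mutants lay on opposite sides of their controls in the P5 tables, and neither comparison passed (limma adjusted p = 0.224 and 0.511). All 3 Vangl2 mutants were above their controls (47.7 to 95.6 against 18.2 to 42.3 normalized counts, as in 13.2% of genes) and all 3 Ror2 mutants below the 2 controls used (38.2 to 60.3 against 64.5 to 67.3, as in 18.3% of the genes with 2 controls). The Ror2 effect minus the Vangl2 effect was -1.44 on the log2 scale (SE 0.54, limma unadjusted p = 0.0227, adjusted p = 0.946 over all genes), so the difference did not pass. With control replicate 1 of the Ror2 P5 table as deposited, in which Mmp12 is listed at 0, it was 0.58.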

How the results depend on the processing

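Of 1127 member values recomputed under alternatives, 1063 kept their direction and their side of the threshold, 10 newly passed it, 20 no longer did and 34 changed direction. With DESeq2 on whole reads the members called were 2, 1, 1 and 1 of 9 (Vangl2 P2, Vangl2 P5, Ror2 P2, Ror2 P5) and the genes called 1913, 1199, 666 and 797, against 626, 98, 0 and 31 with limma and 641, 69, 0 and 30 with edgeR. Leaving out single lungs gave 0 to 1 members called in Vangl2 P2, 0 to 2 in Ror2 P5 (Mmp2 and Mmp14, without mutant replicate 3) and 0 in the others. The mean effect over 4 tables called 1 member without the Vangl2 P2 table and 1 without the Ror2 P2 table, Mmp14 in both. Without the Vangl2 P5 table the mean of Mmp12 was -0.12, and without either Vangl2 table that of Timp1 was -0.019. With all genes kept, the genes called were 18, 22, 12 and 41, without the trend 1, 4, 2 and 11, and with sex as a covariate 596, 22, 0 and 0, each with 0 members, the last with control replicate 1 of unread sex counted as not male. Equal totals called 674, 193, 0 and 35 genes and moved the median of all genes by -0.07, 0.09, -0.04 and 0.04, and by 0.16 for P5 against P2 in Vangl2. The cause of these differences was not tested.

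Same-numbered lungs deviated together most in the Vangl2 P5 table, and no label gives a pairing. In the others the correlations of same-numbered lungs were -0.01, 0.04 and 0.09 (Vangl2 P2), 0.03, 0.21 and 0.12 (Ror2 P2) and 0.05, -0.05 and -0.09 (Ror2 P5). With the replicate block 795, 1558, 1 and 1 genes were called, and it changed no call of a member. The log2 fold change of Mmp3 in Ror2 P5 was then -0.29. With sex as a covariate Timp3 in Vangl2 P5 was -0.090, the same value as without mutant replicate 1, the only male lung of that table.

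With control replicate 1 of Ror2 P5 as deposited, where Mmp2 and Mmp12 are listed at 0, the Ror2 P5 values were 4.10 for Mmp2 and 1.66 for Mmp12, and the differences of effects 4.13 for Mmp2 (P5 against P2) and 0.58 for Mmp12 (Ror2 against Vangl2). These follow from the missing chromosomes.

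Values that changed direction without a single lung, as ranges, were Mmp2 (-0.021 to 0.13), Mmp12 (-0.70 to 0.31) and Timp1 (-0.17 to 0.69) in Vangl2 P2, and Mmp11 (-0.10 to 0.20) and Timp3 (-0.090 to 0.30) in Vangl2 P5. In Ror2 P2 they were Mmp2 (-0.093 to 0.024), Mmp3 (-1.18 to 0.36) and Mmp12 (-0.14 to 0.34), and in Ror2 P5 Mmp3 (-0.29 to 0.47), Mmp19 (-0.15 to 0.043) and Timp3 (-0.25 to 0.069). Among differences of effects they were Mmp14 between genotypes at P2 (-0.18 to 0.030) and between ages in Ror2 (-0.10 to 0.19), and Timp3 between genotypes at P5 (-0.38 to 0.021), and over 4 tables Timp1 (-0.052 to 0.14). The reads behind Mmp3 and Mmp12 limit both.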
